A study of Rattus norvegicus with 78 samples.

Results

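The 82 probesets described here were chosen by their measured line difference: their mean log2 intensity was lower in FSL than in FRL rats by at least 0.4 in each of 2 regions, hippocampus (HIP) and prefrontal/frontal cortex (P/FC), with a mean FRL intensity above 60 in both. They are 82 of 31042 non-control probesets on the array. In all, 97 probesets met these limits, and 15 of them, belonging to 12 genes (Car3, Rnase4, Col6a1, Nrip3, Tsc22d4, Adpgk, Abhd6, Fam111a, Ephx2, Gabbr1, Arc and Tmem176a), were set aside. With the direction turned, 51 probesets were higher in FSL by the same limits. A probeset is a set of short oligos on the array whose signals are summarised as a single intensity, here on a linear scale after background subtraction and normalisation by the authors. Since the size of the fall selected these probesets, their line differences are given as a description and carry no test.

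FSL rats (Flinders Sensitive Line) and FRL rats (Flinders Resistant Line) share Sprague-Dawley ancestors and were separated by breeding for high or low sensitivity to a cholinesterase inhibitor, diisopropylfluorophosphate. The sensitive line is used as a model of depression-like behaviour with the resistant line as its control. All animals were adult males that had been through a forced swim test 1 week before HIP and the whole frontal lobe of the right hemisphere were taken. The 2 cohorts of rats gave 12 FRL and 9 FSL arrays in cohort 1 and 10 FRL and 8 FSL arrays in cohort 2 for each region, 78 arrays in all. Each line is a single breeding population, so that a gene's level in FSL stands against 1 control line. The 2 regions were processed on the array separately, and region and processing run cannot be told apart. The median intensity of an array lay between 56.8 and 63.0 for HIP and between 60.8 and 65.96 for P/FC. Prox1, a marker of dentate granule cells, had summed medians of 410 in both lines in HIP against 122 in FRL and 112 in FSL in P/FC.

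The members do not form a pathway by construction, and their known roles are varied. Among them are regulators of the actin skeleton, which shapes dendritic spines, proteins of the endoplasmic reticulum and of membrane traffic, transporters of vessel walls and glia, and factors that bind DNA or RNA. Of the 82 probesets, 41 carried 1 gene symbol (40 genes, as Rtn3 had a pair of them), 6 carried several symbols and are not named, and 35 carried none in the annotation used here. Oligo probesets respond to the amount of transcript and to its sequence, so that a lower amount and a sequence difference between the lines under the oligos cannot be told apart from one probeset. In tissue, fewer cells of a type and less RNA per cell cannot be told apart either.

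**Figure D1:**
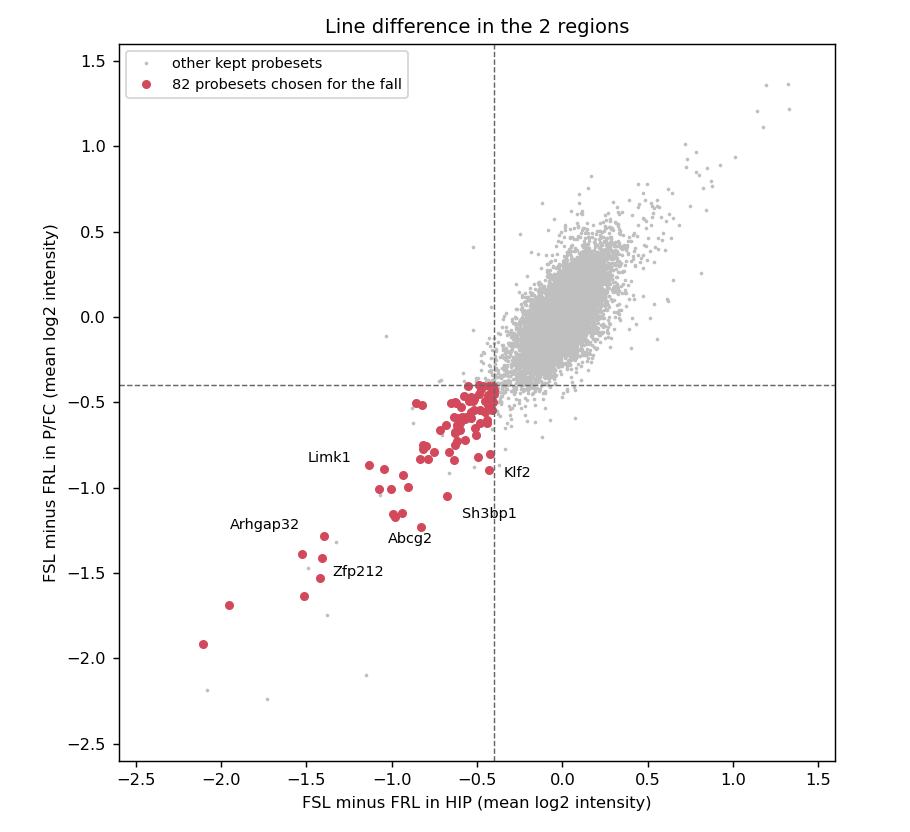
FSL minus FRL of the mean log2 intensity in HIP (x axis) and in P/FC (y axis) for the 82 chosen probesets (red) and all other probesets kept by the intensity filter in both regions (grey), with dashed lines at -0.4. Grey points past both lines belong to the 12 genes set aside or had an FRL mean of 60 or less. The red points run along the diagonal, down to -2.11 in HIP and -1.92 in P/FC.

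Over the 82 probesets, the median of FSL minus FRL was -0.60 in HIP and -0.62 in P/FC on the log2 scale, against a median over all kept probesets of 0.00 in both regions. FSL was lower by 1 log2 unit or more in both regions for 9 members. The probesets nearest to the limit were Commd6 (-0.49 in HIP, -0.40 in P/FC) on the inside and Phactr3 (-0.39 in HIP, -0.45 in P/FC) on the outside. At the intensity limit they were Pou2f1 inside, with an FRL mean of 61.8 in HIP, and a probeset without a symbol outside, with 57.3. The members' FRL means lay between 61.8 and 1704 in HIP (median 138) and between 64.3 and 2163 in P/FC (median 149.8), while the median over all kept probesets was 100.9 in HIP and 102 in P/FC. No array value of a member lay under 1.

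The intensity filter of the study (an intensity over 30 on no less than 50% of a line's arrays, for each line) kept 78 members in HIP, 79 in P/FC and 77 in both, of 21630, 22370 and 20963 probesets. Zfp212 and 1376413_at passed in neither region and were in no test, Limk1 and 1383393_at passed only in P/FC, and 1395546_at only in HIP. In the fit of limma over all kept probesets, 75 of 78 members in HIP and 76 of 79 in P/FC were lower in FSL at an adjusted p under 0.05. This was so for 4.13% of all kept probesets in HIP and 8.86% in P/FC, and the members' counts follow from how they were chosen. The same 3 members missed it in both regions: Dgke (adjusted p by limma 0.093 in HIP and 0.084 in P/FC), Igf2 (0.25 and 0.11) and 1371245_a_at (0.23 and 0.14), a probeset annotated with more than 1 haemoglobin symbol.

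The largest falls had no gene symbol. Probeset 1387366_at differed by -2.11 in HIP and -1.92 in P/FC, 1383393_at by -1.96 in HIP and -1.69 in P/FC, 1376413_at by -1.51 in HIP and -1.64 in P/FC, 1395546_at by -1.42 in HIP and -1.53 in P/FC, and 1392736_at by -1.53 in HIP and -1.39 in P/FC. The paper's real-time PCR for 1392736_at also found a fall in FSL in both regions, by a smaller fold than on the array. For 1387366_at in HIP, the FRL arrays read 169 to 297 (median 266) in cohort 1 and 191 to 266 (median 214) in cohort 2, against 34.9 to 65.9 (median 60.4) and 47.9 to 72.7 (median 56.2) in FSL. In P/FC, for the same probeset, the FRL arrays read 153 to 279.95 (median 249.9) in cohort 1 and 169 to 243 (median 196) in cohort 2, against 41.5 to 70.8 (median 56.3) and 54.00 to 68.8 (median 59.97) in FSL. All 17 FSL arrays of each region lay below all 22 FRL arrays.

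Zfp212 encodes a zinc finger protein of the DNA-binding kind, and its probeset had the largest mean fall among the members with a symbol (-1.41 in HIP and -1.41 in P/FC). For Zfp212 in HIP, the FRL arrays read 69.4 to 100.3 (median 93.2) in cohort 1 and 51.1 to 75.00 (median 61.03) in cohort 2, against 22.8 to 34.9 (median 30.9) and 20.7 to 31.9 (median 27.3) in FSL. For Zfp212 in P/FC, the FRL arrays read 67.1 to 95.5 (median 80.6) in cohort 1 and 56.4 to 76.7 (median 64.1) in cohort 2, against 13.5 to 34.3 (median 28.8) and 20.2 to 34.8 (median 29.9) in FSL. No FSL array reached the lowest FRL array in any of the 4 comparisons of region and cohort, and the FSL medians lay near the filter's limit of 30. Zfp317, another zinc finger gene among the members, differed by -0.68 in HIP and -0.63 in P/FC with overlapping arrays in all 4 comparisons.

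Some members act on small GTPases or the actin skeleton. Arhgap32, a GTPase-activating protein that is abundant in brain, differed by -1.40 in HIP and -1.28 in P/FC. The paper's real-time PCR for this gene, under its older name RICS, found a far smaller fall in HIP. In P/FC that PCR found no significant difference in either cohort. For Arhgap32 in HIP, the FRL arrays read 153 to 552 (median 243) in cohort 1 and 240.3 to 532 (median 292) in cohort 2, against 56.4 to 230.3 (median 76.6) and 80.6 to 219 (median 156) in FSL. For Arhgap32 in P/FC, the FRL arrays read 439 to 1175 (median 632) in cohort 1 and 542 to 753 (median 672) in cohort 2, against 135 to 329 (median 214) and 162 to 463 (median 371) in FSL. The only overlap came from 1 FSL array of HIP in cohort 1, at 230, which lay above the lowest FRL array there. Sh3bp1, a further GTPase-activating protein of this kind, differed by -0.67 in HIP and -1.05 in P/FC. For Sh3bp1 in HIP, the FRL arrays read 54.9 to 84.4 (median 77.6) in cohort 1 and 74.4 to 121 (median 93.00) in cohort 2, against 33.3 to 58.3 (median 52.1) and 39.2 to 83.97 (median 52.3) in FSL. For Sh3bp1 in P/FC, the FRL arrays read 58.7 to 127 (median 88.3) in cohort 1 and 63.1 to 138 (median 91.6) in cohort 2, against 35.7 to 81.02 (median 48.3) and 22.9 to 46.7 (median 38.4) in FSL. The lines were apart only in P/FC of cohort 2, and 3, 2 and 4 FSL arrays reached the FRL range in the other comparisons. Limk1, the kinase that phosphorylates the actin-severing protein cofilin, differed by -1.13 in HIP and -0.87 in P/FC. For Limk1 in HIP, the FRL arrays read 29.3 to 105 (median 64.5) in cohort 1 and 40.03 to 85.1 (median 70.6) in cohort 2, against 23.02 to 56.6 (median 33.1) and 14.2 to 34.2 (median 28.3) in FSL. For Limk1 in P/FC, the FRL arrays read 76.7 to 178 (median 155) in cohort 1 and 78.9 to 148 (median 106) in cohort 2, against 31.9 to 106 (median 76.1) and 34.4 to 81.5 (median 71.4) in FSL. Its arrays were apart only in HIP of cohort 2. Rab22a, a small GTPase of endosomes, differed by -0.53 in HIP and -0.59 in P/FC, Csrp1, a LIM domain protein bound to actin, by -0.41 in HIP and -0.45 in P/FC, and Anxa6, a calcium-dependent membrane binding protein, by -0.62 in HIP and -0.63 in P/FC.

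Several members act in the endoplasmic reticulum or in membrane traffic. Rtn3, a reticulon that shapes the tubules of the endoplasmic reticulum, had 2 member probesets. For Rtn3 in HIP, by probeset 1373571_at, the FRL arrays read 1382 to 1816 (median 1539) in cohort 1 and 1551 to 1985 (median 1759) in cohort 2, against 886 to 1088 (median 1043) and 811 to 986 (median 931) in FSL. For Rtn3 in P/FC, by the same probeset, the FRL arrays read 1423 to 2238 (median 1842) in cohort 1 and 1465 to 1704 (median 1649.9) in cohort 2, against 1083 to 1266 (median 1131) and 785 to 909 (median 829.6) in FSL. Its FSL minus FRL was -0.79 in HIP and -0.83 in P/FC, and the lines did not overlap in any of the 4 comparisons. The other Rtn3 member, 1387340_at, differed by -0.58 in HIP and -0.46 in P/FC, with overlap only in P/FC of cohort 1, where 3 of 9 FSL arrays reached the lowest FRL array. Pdia4, a disulfide isomerase that folds proteins in the endoplasmic reticulum, differed by -0.75 in HIP and -0.79 in P/FC. For Pdia4 in HIP, the FRL arrays read 97.1 to 181 (median 139) in cohort 1 and 107 to 153 (median 118) in cohort 2, against 74.2 to 144 (median 115) and 42.00 to 96.8 (median 57.2) in FSL. For Pdia4 in P/FC, the FRL arrays read 88.6 to 197 (median 137) in cohort 1 and 103 to 142 (median 123) in cohort 2, against 76.2 to 102 (median 82.6) and 43.98 to 95.8 (median 61.5) in FSL. Its lines were apart in cohort 2 and overlapped in cohort 1, where 6 FSL arrays of HIP and 3 of P/FC reached the FRL range. Wipi2, which binds phosphoinositides on forming autophagosomes, differed by -0.80 in HIP and -0.75 in P/FC. For Wipi2 in HIP, the FRL arrays read 93.5 to 318 (median 198) in cohort 1 and 169 to 245 (median 177) in cohort 2, against 97.4 to 128 (median 114) and 108 to 125 (median 111) in FSL. For Wipi2 in P/FC, the FRL arrays read 106 to 314 (median 218) in cohort 1 and 191 to 245 (median 225) in cohort 2, against 93.5 to 135 (median 108) and 135 to 158 (median 149.7) in FSL. Here too the lines were apart in cohort 2 only. In HIP of cohort 1 all 9 FSL arrays lay at or above the lowest FRL array, at 93.5. The remaining members of this kind had smaller differences, with Cog3, a subunit of a Golgi tethering complex, at -0.41 in HIP and -0.54 in P/FC, Esyt2, which tethers the endoplasmic reticulum to the plasma membrane, at -0.42 in HIP and -0.45 in P/FC, and Snx14, a sorting nexin, at -0.40 in HIP and -0.40 in P/FC.

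Members that carry molecules across membranes or belong to vessels and glia were lower as well. Abcg2, an efflux pump of the vessel wall at the blood-brain barrier, differed by -0.98 in HIP and -1.17 in P/FC. For Abcg2 in HIP, the FRL arrays read 32.7 to 83.8 (median 59.4) in cohort 1 and 51.2 to 95.9 (median 82.1) in cohort 2, against 21.3 to 50.4 (median 32.98) and 23.8 to 43.4 (median 33.3) in FSL. For Abcg2 in P/FC, the FRL arrays read 40.04 to 123 (median 88.2) in cohort 1 and 65.6 to 125 (median 92.5) in cohort 2, against 25.4 to 44.1 (median 37.3) and 28.9 to 45.9 (median 38.7) in FSL. Cohort 2 showed no overlap, while 5 FSL arrays of HIP and 2 of P/FC in cohort 1 reached the FRL range. Fn1, the matrix protein fibronectin, differed by -0.64 in HIP and -0.84 in P/FC. For Fn1 in HIP, the FRL arrays read 138 to 200.03 (median 169) in cohort 1 and 149.8 to 213 (median 192) in cohort 2, against 91.5 to 148 (median 129) and 82.2 to 134 (median 109) in FSL. For Fn1 in P/FC, the FRL arrays read 167 to 301 (median 219) in cohort 1 and 221 to 354 (median 276) in cohort 2, against 112 to 171 (median 125) and 106 to 209.98 (median 147) in FSL. Again the lines were apart in cohort 2 in both regions. Phgdh, the first enzyme of serine synthesis and in brain mostly glial, differed by -0.83 in HIP and -0.83 in P/FC. For Phgdh in HIP, the FRL arrays read 258 to 423 (median 342) in cohort 1 and 194 to 351 (median 255) in cohort 2, against 161 to 222 (median 188) and 128 to 195 (median 139) in FSL. For Phgdh in P/FC, the FRL arrays read 166 to 341 (median 227) in cohort 1 and 176 to 317 (median 231) in cohort 2, against 94.3 to 177 (median 139) and 92.9 to 184 (median 131) in FSL. At most 1 FSL array reached the FRL range in any of the 4 comparisons. Slc15a2, a peptide transporter of astrocytes and choroid plexus, differed by -0.49 in HIP and -0.82 in P/FC, and Abca1, which exports cholesterol to apolipoproteins, by -0.57 in HIP and -0.60 in P/FC.

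Markers of some cell types, but not of all, were also lower in FSL by their means. All 4 astrocyte markers (Gfap, Aqp4, Aldh1l1, Slc1a3) had lower means in FSL in both regions, by -0.10 to -0.20 on the log2 scale in HIP and -0.26 to -0.35 in P/FC. Their summed intensity ran from 6474 to 8070 in FRL and from 5893 to 7086 in FSL in HIP, and from 4240 to 7309 in FRL and from 4170 to 5467 in FSL in P/FC. All 4 vessel markers (Cldn5, Vwf, Tek, Pecam1) were also lower in both regions, with sums of 517 to 729.5 in FRL and 528 to 673 in FSL in HIP, and of 662 to 1166 in FRL and 603 to 844 in FSL in P/FC. No marker of either list was at 0 on any array. Both red blood cell markers were lower too, with Hbb at -0.35 in HIP and -0.44 in P/FC and Alas2 at -0.17 and -0.28, and their sums ran from 530 to 3882 in FRL against 477 to 3884 in FSL in HIP and from 944 to 3925 against 725 to 2712 in P/FC. The member 1371245_a_at, with haemoglobin symbols, differed by -0.40 in HIP and -0.45 in P/FC. Both markers of oligodendrocyte precursors and both of thalamus were lower in both regions as well. In the other lists, 2 of 4 markers of neurons, 2 of 4 of microglia and 1 of 3 of oligodendrocytes were lower in both. The count was 3 of 4 for choroid plexus and 2 of 4 for meninges. It was 0 of 4 for striatum and 0 of 1 for dentate granule cells. No matching share of all kept probesets is given here. The part of astrocytes, vessels, red blood cells and the other cell types in the falls of Phgdh, Slc15a2, Abcg2, Fn1 and 1371245_a_at was not tested.

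Signalling molecules among the members included a receptor, a chemokine and a growth factor. Grm5, a metabotropic glutamate receptor, differed by -0.72 in HIP and -0.66 in P/FC. For Grm5 in HIP, the FRL arrays read 138 to 358 (median 237) in cohort 1 and 190.3 to 342 (median 274) in cohort 2, against 125 to 168 (median 152) and 134 to 159 (median 147) in FSL. For Grm5 in P/FC, the FRL arrays read 102 to 304 (median 220.4) in cohort 1 and 155 to 308 (median 251) in cohort 2, against 126 to 192 (median 168) and 90.1 to 142 (median 116) in FSL. In cohort 1 some FRL arrays lay within or under the FSL range, with 7 of 9 FSL arrays of HIP and 9 of 9 of P/FC at or above the lowest FRL array, whereas in cohort 2 the lines were apart in both regions. Cx3cl1 (fractalkine), by which neurons signal to microglia, differed by -0.62 in HIP and -0.59 in P/FC. For Cx3cl1 in HIP, the FRL arrays read 1220.2 to 1563 (median 1414) in cohort 1 and 940.4 to 1661 (median 1454) in cohort 2, against 805 to 922 (median 872) and 893 to 1166 (median 946) in FSL. For Cx3cl1 in P/FC, the FRL arrays read 1706 to 2498 (median 2187) in cohort 1 and 1339 to 2467 (median 2340.3) in cohort 2, against 1237 to 1705 (median 1377) and 1222 to 1612 (median 1509) in FSL. Cohort 1 had no overlap in either region, and in cohort 2 the lowest FRL arrays fell within the FSL range. Cd99, a cell surface glycoprotein, differed by -0.82 in HIP and -0.52 in P/FC. Igf2, a growth factor that in adult brain comes mainly from choroid plexus and meninges, differed by -0.52 in HIP and -0.54 in P/FC, and 3 FRL arrays of HIP stood apart at 617 to 1119 from the other 19, at 136 to 389. In FSL the arrays of HIP also reached 958, with a median of 147 against 203 in FRL. The summed choroid plexus markers of HIP ran from 165 to 10812 in FRL and from 198 to 13715 in FSL, and the meningeal ones from 217 to 1331 and from 269.9 to 1526. The part of these tissues in the Igf2 values was not tested. Fcrl2, which belongs to the Fc receptor-like family of lymphocytes, differed by -0.99 in HIP and -1.15 in P/FC. For Fcrl2 in HIP, the FRL arrays read 47.96 to 144 (median 95.6) in cohort 1 and 53.04 to 131 (median 98.99) in cohort 2, against 38.4 to 53.4 (median 48.1) and 43.1 to 55.5 (median 48.3) in FSL. For Fcrl2 in P/FC, the FRL arrays read 51.9 to 194 (median 104) in cohort 1 and 35.3 to 156 (median 113) in cohort 2, against 44.4 to 60.4 (median 50.7) and 38.02 to 52.9 (median 47.8) in FSL. Every comparison overlapped, and in P/FC of cohort 2 all 8 FSL arrays were at or above a single FRL array at 35.3.

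Transcription factors and RNA-binding proteins formed a further group. Pou2f1, which binds the octamer motif, differed by -0.94 in HIP and -1.15 in P/FC. For Pou2f1 in HIP, the FRL arrays read 31.4 to 64.2 (median 52.6) in cohort 1 and 29.98 to 115 (median 90.4) in cohort 2, against 24.5 to 34.5 (median 28.4) and 27.5 to 49.5 (median 35.3) in FSL. For Pou2f1 in P/FC, the FRL arrays read 22.9 to 94.9 (median 46.8) in cohort 1 and 47.7 to 135 (median 100.2) in cohort 2, against 13.2 to 37.96 (median 22.2) and 28.8 to 51.97 (median 37.5) in FSL. The FRL medians of cohort 2 were above those of cohort 1 in both regions, and the lines overlapped in all 4 comparisons. Mdm4, an inhibitor of p53, differed by -0.63 in HIP and -0.67 in P/FC. For Mdm4 in HIP, the FRL arrays read 274 to 371 (median 323) in cohort 1 and 275 to 384 (median 329) in cohort 2, against 186 to 234 (median 198) and 196 to 253 (median 224) in FSL. For Mdm4 in P/FC, the FRL arrays read 288 to 393 (median 347) in cohort 1 and 304 to 399.5 (median 338) in cohort 2, against 178 to 238 (median 205) and 197 to 248 (median 228) in FSL. Although the fall was smaller than that of many members, the arrays did not overlap in any comparison. Rbm15, an RNA-binding protein, differed by -0.62 in HIP and -0.73 in P/FC, Ddx42, an RNA helicase, by -0.60 in HIP and -0.66 in P/FC, and Exosc8, a subunit of the RNA exosome, by -0.47 in HIP and -0.41 in P/FC. The ubiquitin ligase genes Rnf138 and Rnf25 differed by -0.44 in HIP and -0.60 in P/FC and by -0.41 in HIP and -0.50 in P/FC.

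Fos and Klf2, both induced quickly by activity or shear stress, varied widely between arrays of 1 line. Fos differed by -0.63 in HIP and -0.68 in P/FC. For Fos in HIP, the FRL arrays read 18.2 to 136 (median 54.6) in cohort 1 and 74.5 to 172 (median 108) in cohort 2, against 20.4 to 60.3 (median 30.02) and 48.6 to 125 (median 72.01) in FSL. For Fos in P/FC, the FRL arrays read 56.9 to 529 (median 122) in cohort 1 and 182 to 546 (median 293) in cohort 2, against 23.3 to 230.2 (median 68.00) and 188 to 306 (median 236) in FSL. All 4 comparisons overlapped, and both lines were brighter in cohort 2 than in cohort 1 by their medians. Klf2 differed by -0.43 in HIP and -0.90 in P/FC and overlapped in all 4 comparisons. Taken as deviations from the mean of their line and cohort, Fos and Klf2 went together over the 39 arrays of HIP (Pearson r = 0.67, permutation p = 1e-05, Spearman coefficient = 0.66, permutation p = 2e-05) and of P/FC (Pearson r = 0.68, permutation p = 1e-05, Spearman coefficient = 0.71, permutation p = 1e-05), 2-sided, where 1e-05 is the smallest value these permutations can give. Without the 2 arrays farthest from the median of Fos, r was 0.64 in HIP and 0.59 in P/FC, and by cohort it was 0.72 and 0.57 in HIP and 0.65 and 0.89 in P/FC. The pair was selected after its values were seen, as 1 of 2 pairs and 4 relations computed. For the pair of Rtn3 probesets r was 0.55 in HIP (Spearman coefficient = 0.48, permutation p = 0.00018 and 0.00231) and 0.53 in P/FC (Spearman coefficient = 0.48, permutation p = 0.00062 and 0.00215). The adjusted values over the 4 relations were 2e-05 for both r of Fos and Klf2, 4e-05 for both Spearman coefficients, 0.00024 and 0.00062 for r of Rtn3 and 0.00231 for both Spearman coefficients. Without the farthest pair of arrays r of Rtn3 was 0.56 and 0.50, and by cohort 0.61 and 0.52 in HIP but 0.74 and 0.18 in P/FC. Of the 23 kept probesets of immediate early genes, 15 were lower in FSL in both regions, with medians of -0.07 in HIP and -0.14 in P/FC. The 15 include Fos and Arc, which met the limits because they were low, and no matching share of all kept probesets is given here. Not lower in both were Egr3 (0.09 in HIP, -0.04 in P/FC), Nr4a2 (-0.05, 0.16) and a probeset of Ier5 (0.06, 0.08), among others. The Jun probesets lay between 0.00 and 0.05 in HIP and between -0.14 and -0.06 in P/FC. Besides Fos (and Arc, set aside), the falls of Egr1 (-0.20 in HIP, -0.32 in P/FC), Nr4a1 (-0.22, -0.52) and Ier2 (-0.35, -0.42) were under the limit in at least one region.

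**Figure D2:**
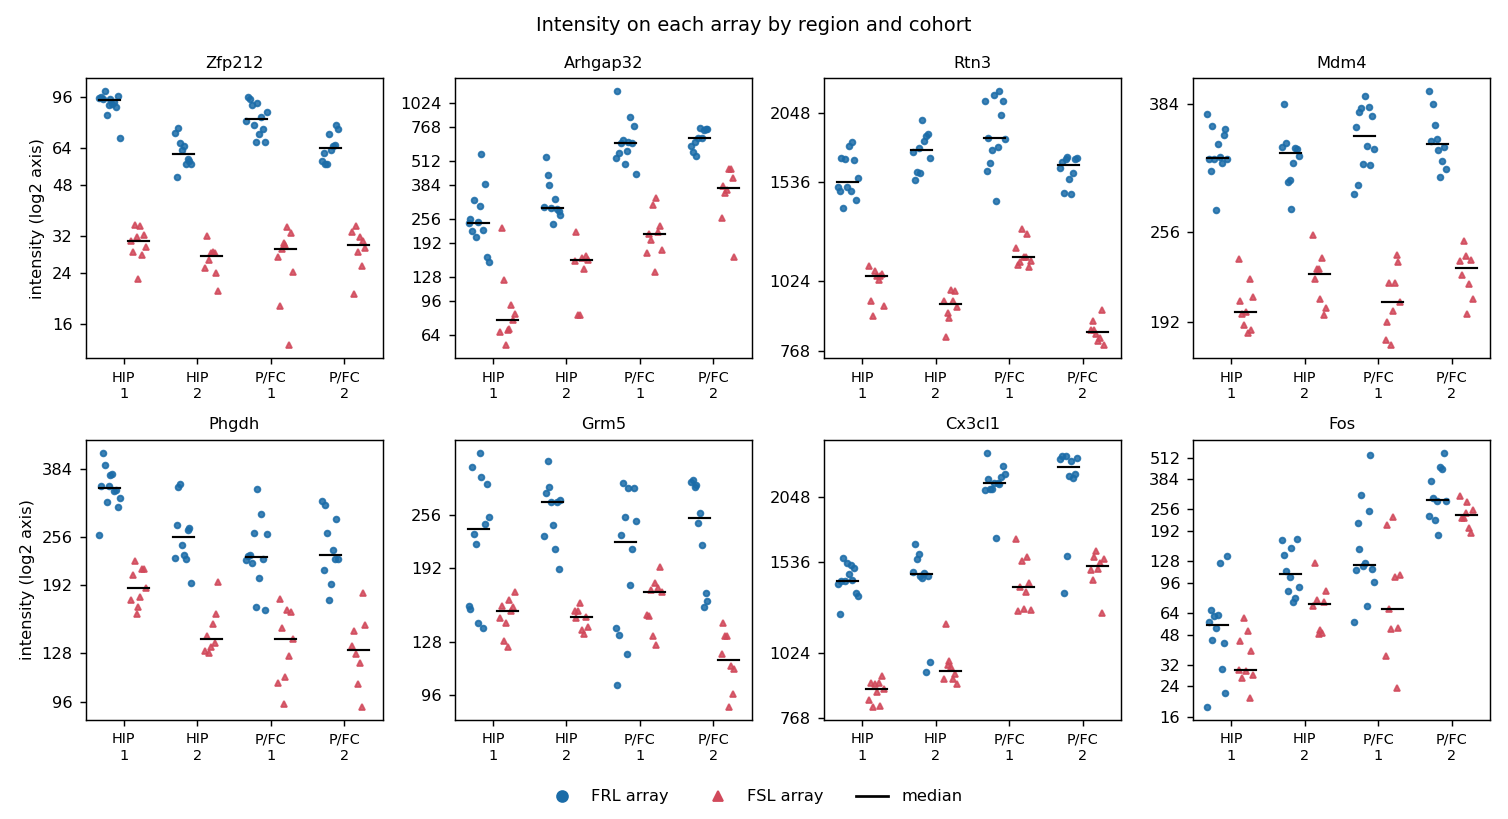
Intensity on each array (y axis, log2 scale) for 8 members, with FRL as blue circles, FSL as red triangles and a bar at the median, by region and cohort (x axis). Zfp212, Rtn3 (1373571_at) and Mdm4 show no overlap, Grm5 and Cx3cl1 overlap through a few low FRL arrays, and Fos overlaps in all 4 comparisons.

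No gene list held more than 2 members kept in both regions. The 39 such members with a symbol make up 0.257% of the 15203 probesets with 1 symbol kept in both regions. The members held 2 of 182 kept probesets of the RNA processing list (1.099%), 2 of 283 of the small GTPases and their regulators (0.707%), 2 of 319 of the ubiquitin system (0.627%), and 1 of 327 zinc finger probesets (0.306%), beside Zfp212, which was not kept. They held 1 of 299 membrane transporter probesets (0.334%), 1 of 47 of matrix genes (2.13%), 1 of 90 of neurotransmitter receptors (1.11%) and 1 of 23 of immediate early genes (4.35%). Each of these shares rests on 1 probeset. None belonged to the lists of ion channels (164 probesets), kinases and phosphatases (360), mitochondrial genes (221), ribosomal genes (57), chaperones (86), detoxification genes (84), the MHC and interferon response (47) or adhesion (76). The genes set aside, whose probesets met the same limits, are not counted as members here. Of them, Ephx2 matches the detoxification pattern, Gabbr1 the receptor, Col6a1 the matrix and Arc the immediate early pattern. Symbol patterns made these lists, so that a gene such as Limk1 is in none of them. The membrane transporter list holds Slc symbols only, so that the members Abcg2 and Abca1 are not counted in it.

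The genes lay on most chromosomes. By the gene order of the RefSeq table of GRCr8, 40 member genes were located, among 10885 located genes of kept probesets. Chromosomes 2, 10 and 15 held 4 each, or 10.0% of the members' genes against 6.43%, 8.80% and 2.84% of all located genes, and chromosomes 14, 17 and X held none. Within 10 genes of each other lay Pdia4 and Zfp212 on chromosome 4 (4 genes apart) and Dgke and Tmem100 on chromosome 10 (6 genes apart). Pnp on chromosome 15 lay 7 genes from Rnase4, which was set aside. Dgke, a kinase of diacylglycerol, differed by -0.63 in HIP and -0.50 in P/FC. By cohort its difference was -1.07 and -0.20 in HIP and -0.97 and -0.02 in P/FC, and its median in P/FC was 213 in FRL and 216 in FSL, so that the mean difference lay mostly in cohort 1. Tmem100, a membrane protein of vessel development, differed by -0.59 in HIP and -0.58 in P/FC, and Pnp, an enzyme of purine salvage, by -0.44 in HIP and -0.62 in P/FC.

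Of 15 other kept probesets of 11 genes within 10 genes of Pdia4 or Zfp212, none was lower by 0.4 or more in both regions, with medians of -0.03 in HIP and 0.05 in P/FC. Zfp282, between the pair, differed by 0.01 and 0.05, and 1 of the Cntnap2 probesets in this stretch was higher in FSL by 0.72 in HIP and 1.02 in P/FC. Within 10 genes of Dgke or Tmem100, none of 16 other probesets of 11 genes was lower by that much in both regions. A probeset of Msi2 there differed by -0.36 in HIP and -0.58 in P/FC. Nog and Pctp, between the pair, were above 0 in both. Near Pnp and Rnase4, none of 6 other probesets of 6 genes was lower by 0.4 or more in both regions. Osgep in that stretch differed by -0.42 in HIP and -0.31 in P/FC.

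Promoters of 4 members are shown, those of the 3 named genes without any overlap of arrays and of Pdia4, the neighbour of Zfp212. The sequences are RefSeq's for GRCr8, from 250 bases before to 50 after the gene's start, 5′ to 3′ on the gene's strand, and 32 of the 40 member genes had an entry (Anxa6, Fcrl2, Fn1, Fos, Klf2, Rab22a, Tmem100 and Vwa8 had none). Capitals mark the GC box GGGCGG on either strand.
Zfp212 at chr4:78254359-78254658, plus strand: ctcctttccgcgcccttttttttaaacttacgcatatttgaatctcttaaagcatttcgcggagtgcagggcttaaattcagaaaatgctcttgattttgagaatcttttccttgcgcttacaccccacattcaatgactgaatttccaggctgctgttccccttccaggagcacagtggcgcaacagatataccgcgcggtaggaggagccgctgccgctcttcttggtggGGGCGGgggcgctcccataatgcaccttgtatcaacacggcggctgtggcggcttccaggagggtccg
Pdia4 at chr4:78153142-78153441, minus strand: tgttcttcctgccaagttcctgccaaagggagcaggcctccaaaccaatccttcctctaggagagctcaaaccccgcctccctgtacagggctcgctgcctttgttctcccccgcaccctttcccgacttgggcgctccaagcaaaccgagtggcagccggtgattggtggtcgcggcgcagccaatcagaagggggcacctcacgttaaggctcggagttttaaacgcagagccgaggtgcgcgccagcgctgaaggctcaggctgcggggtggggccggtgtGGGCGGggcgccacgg
Rtn3 at chr1:214098311-214098610, minus strand: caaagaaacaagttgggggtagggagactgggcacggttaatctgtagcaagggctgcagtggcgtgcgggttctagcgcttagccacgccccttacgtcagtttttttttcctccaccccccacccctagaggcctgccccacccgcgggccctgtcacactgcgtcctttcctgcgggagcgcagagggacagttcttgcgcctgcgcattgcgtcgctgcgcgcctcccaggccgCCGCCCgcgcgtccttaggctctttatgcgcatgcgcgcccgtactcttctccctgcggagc
Mdm4 at chr13:47026238-47026537, minus strand: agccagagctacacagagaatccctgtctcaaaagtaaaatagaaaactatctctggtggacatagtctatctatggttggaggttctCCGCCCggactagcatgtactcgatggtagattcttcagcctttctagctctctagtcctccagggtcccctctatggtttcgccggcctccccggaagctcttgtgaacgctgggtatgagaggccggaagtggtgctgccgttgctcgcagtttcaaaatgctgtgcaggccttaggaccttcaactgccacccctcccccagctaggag
Each of these held 1 match. The GC box was in 22 of 32 members' promoters (68.8%) and in 33.1% of all 33469 promoters of this length, measured here or not. TATAAA, on either strand, was in 6 of 32 (18.8%) and in 14.2% of all. The octamer ATTTGCAT, the motif bound by Pou2f1, was in none of the 32 and in 1.78% of all. Among the 3 motifs only the GC box occurs in the 4 promoters shown, and a match is a description of the letters only.

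Single arrays of the lines overlapped for most members in at least 1 comparison. No FSL array reached the lowest FRL array for 15 members in HIP of cohort 1, 29 in HIP of cohort 2, 20 in P/FC of cohort 1 and 23 in P/FC of cohort 2. Of all kept probesets this held for 0.143%, 0.305%, 0.17% and 0.295%, in that order. Over all 4 comparisons, 5 members showed no overlap (1387366_at, 1383393_at, Zfp212, Rtn3 by 1373571_at, and Mdm4), 7 had none in 3 and 40 overlapped in every one. Of all 20963 probesets kept in both regions, 0.0286% showed no overlap with FSL lower in all 4, and the members' share follows from how they were chosen. FSL was the lower line by its mean in all 4 comparisons for 81 of 82 members (all but 1371245_a_at, higher by 0.18 in HIP of cohort 1), and by at least 0.4 in all 4 for 46.

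**Figure D3:**
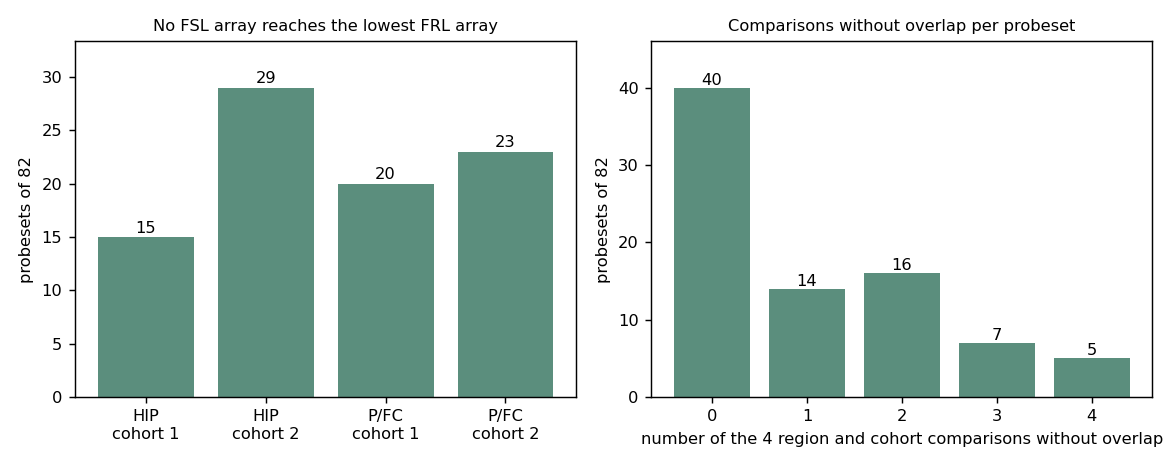
Number of the 82 probesets (y axis) for which no FSL array reached the lowest FRL array, by region and cohort (left), and number of probesets by how many of the 4 comparisons had no overlap (right). The counts are 15, 29, 20 and 23 on the left, beside 31, 66, 38 and 66 among all kept probesets, and 40 probesets overlap in every comparison on the right.

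Inside 1 line, some members had arrays at 2 separate levels. The probesets 1368826_at, 1386855_at and 1381218_at were picked for this after their values were seen. In 1368826_at, 12 of 22 FRL arrays of HIP read 158 to 208 and the other 10 read 50.9 to 89.4, with none between. In P/FC, again 12 FRL arrays read 146 to 184 and 10 read 36.2 to 71.0. The high arrays were 5 of 12 in cohort 1 and 7 of 10 in cohort 2 in both regions. FSL arrays of this probeset read 37.1 to 86.0 in HIP and 42.6 to 71.7 in P/FC, below all of the high FRL arrays. For 1386855_at, 15 FRL arrays of HIP (117 to 219) and 16 of P/FC (95.3 to 224) stood above the other FRL arrays, which read at most 61.2 and 64.0, and the FSL arrays did not exceed 73.0. In 1381218_at the split was in FSL, where 3 arrays of HIP (44.0 to 57.9) and 3 of P/FC (55.2 to 80.1) lay under the other 14 (182 to 374 and 139 to 259).

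With a gap of at least 0.5 log2 units and 3 or more arrays on each side, 4 members in HIP and 5 in P/FC were split among FRL arrays, and 4 and 3 among FSL arrays. The same held for 0.439% and 0.335% of all kept probesets in FRL and for 0.254% and 0.344% in FSL. The labels do not tie an array of HIP to an array of P/FC of the same rat, so whether the same rats were high in both regions was not tested.

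**Figure D4:**
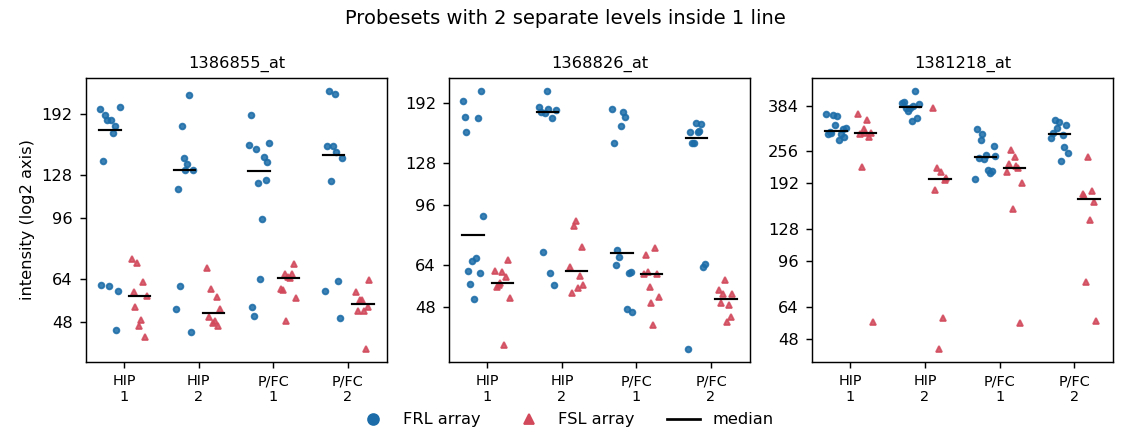
Intensity on each array (y axis, log2 scale) for 3 probesets without a gene symbol, by region and cohort (x axis), with FRL as blue circles, FSL as red triangles and a bar at the median. In the left and middle panels FRL arrays fall into a high and a low set with all FSL arrays below the high set, and in the right panel 3 FSL arrays of each region lie below the other 14.

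For 20 of the 40 genes the array held 30 further probesets, of which 21 were kept in HIP and 20 in P/FC. Their median difference was -0.05 in HIP and -0.03 in P/FC. By limma over all kept probesets, 5 of 21 in HIP and 4 of 20 in P/FC were lower in FSL at an adjusted p under 0.05, against 4.13% and 8.86% of all, and 1 in each region was higher. Because the genes were chosen on the same arrays, these counts are a description.

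Of 18 further probesets kept in both regions, 7 differed by less than 0.1 in both, 1 each for Ddx42, Igf2, Pnp, Rbm15, Rnf138, Rtn3 and Vwa8. A further probeset of Rtn3, 1368807_at, had means of 119.97 in FRL and 122 in FSL in HIP, and differed by 0.03 in HIP and -0.02 in P/FC. For Ddx42 the further probeset had means of 334 in FRL and 328 in FSL in HIP, and differed by -0.02 in HIP and 0.00 in P/FC. For Rbm15 it differed by -0.01 in HIP and -0.02 in P/FC. Zfp212's further probeset was higher in FSL, by 0.26 in HIP and 0.23 in P/FC.

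Among the further probesets kept in both regions, those lower in FSL by 0.2 or more in each were of Abca1 (-0.48 in HIP, -0.45 in P/FC), Zfp317 (-0.41, -0.37), Esyt2 (-0.31, -0.38) and Grm5 (-0.46, -0.20). That of Mdm4 differed by -0.33 in HIP and -0.06 in P/FC. The further probeset of Cd99, with FRL means of 218 in HIP and 236 in P/FC, differed by only -0.14 and -0.02. Klf2 had 4 further probesets, of which 3 were kept. The 3 kept lay between -0.18 and 0.22 in HIP and between -0.27 and 0.35 in P/FC. The further Klf2 probeset that was not kept differed by -0.22 in HIP and -0.65 in P/FC. Whether the probesets of a gene read different transcripts or different sequence was not tested.

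**Figure D5:**
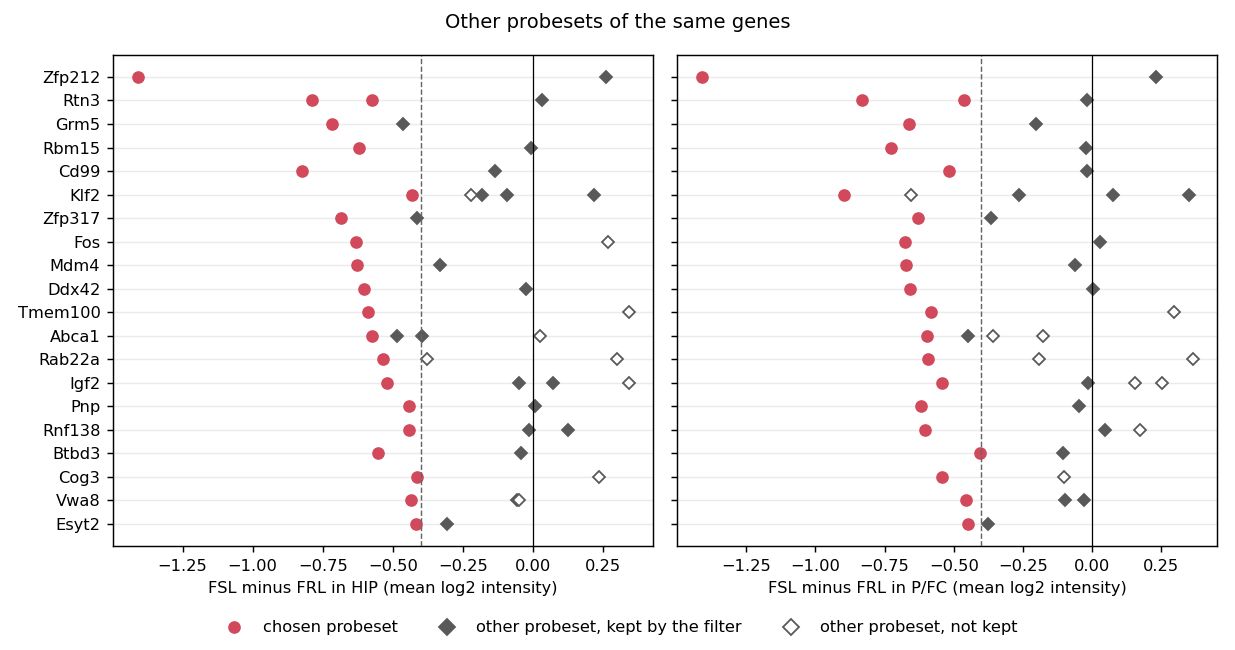
FSL minus FRL (x axis, mean log2 intensity) in HIP (left) and P/FC (right) for the chosen probeset (red circle) and for every further probeset (diamond, open where the filter did not keep it) of the 20 genes that had one (y axis). The dashed line is at -0.4. Diamonds of Abca1, Zfp317, Esyt2 and Grm5 lie toward the red circles, those of Ddx42, Rbm15 and Rtn3 lie near 0, and that of Zfp212 lies above it.

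The size of the line difference was compared between the cohorts, a test that the choice of members did not use. The methods state constant reagents and array lots within a cohort only, and effects of cohort and of reagents or lots cannot be told apart. With limma, none of 78 members in HIP and none of 79 in P/FC showed a cohort difference with an adjusted p under 0.05. This was so for 0% of all kept probesets in HIP and 0% in P/FC. At an unadjusted p under 0.05 there were 18 members in HIP and 12 in P/FC, beside 936 of 21630 and 1036 of 22370 of all kept probesets. The smallest p was that of 1395546_at in HIP, where the fall was larger in cohort 2 by a difference of -1.92 ± 0.37 (SE; limma, adjusted p = 0.14). The next in HIP were Pdia4 (-0.69 ± 0.18), Rtn3 by 1373571_at (-0.27 ± 0.08) and Zfp317 (0.69 ± 0.19), each with an adjusted p of 1.00 by limma. In P/FC they were 1370988_at (0.47 ± 0.15), Sh3bp1 (-0.72 ± 0.24), Snx14 (-0.45 ± 0.15), Rtn3 by 1373571_at (-0.25 ± 0.09) and Grm5 (-0.70 ± 0.25), with an adjusted p of 0.998 each by limma. A negative sign means a larger fall in cohort 2.

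The line difference was also compared between the regions over all 78 arrays. The choice of members asked for a fall of at least 0.4 in both regions. This limits how far apart the falls of a member can lie, so few region differences among members are partly built in. None of 77 members differed at an adjusted p under 0.05 by limma, beside 0.0668% of all kept probesets, and 6 did at an unadjusted p under 0.05, beside 1664 of 20963 of all. The smallest p values were those of 1389754_at (-0.38 ± 0.15), Sh3bp1 (-0.37 ± 0.15), 1379836_at (-0.40 ± 0.18), Slc15a2 (-0.33 ± 0.15) and Cd99 (0.31 ± 0.15), with adjusted p values from 0.487 to 0.595 by limma. A negative sign means a larger fall in P/FC. Over the 77 members the difference between regions ran from -0.47 to 0.36.

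The level of the members, over both lines, differed between the regions for 43 of 77 by limma at an adjusted p under 0.05, 26 of them brighter in P/FC and 17 brighter in HIP. Of all kept probesets, 69.6% did so, and the members' share is below that. The median size of the difference was not smaller in the members, at 0.19 log2 units against 0.17 over all kept probesets. Fos was brighter in P/FC by 1.48 ± 0.16, Arhgap32 by 1.24 ± 0.10 (adjusted p = 1.02e-18 by limma), 1381597_at by 0.96 ± 0.07 (1.71e-22) and Cx3cl1 by 0.64 ± 0.04 (1.39e-23). Brighter in HIP were 1398445_at, at -1.31 ± 0.10 (6.60e-21), and Rab22a, at -0.50 ± 0.04 (1.57e-18), all on the log2 scale as P/FC minus HIP with the SE.

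The ratio of 3′ to 5′ control probesets, which reads how intact the RNA was, differed slightly between the lines. The log2 ratio of Gapdh was 0.83 ± 0.08 (SD, n = 22) in FRL and 0.79 ± 0.07 (n = 17) in FSL in HIP, and 0.87 ± 0.11 and 0.78 ± 0.06 in P/FC. For Actb it was 0.76 ± 0.10 and 0.66 ± 0.08 in HIP, and 0.79 ± 0.15 and 0.73 ± 0.13 in P/FC. With the Gapdh ratio as a covariate, 71 of 82 members stayed lower by 0.4 or more in both regions, and with the Actb ratio 73 did. All 82 stayed below 0 in both regions with either ratio. Striatal markers varied in P/FC, with sums of 850 to 4362 in FRL and 969 to 4485 in FSL (medians 1359 and 2514), and the part of this in the P/FC values was not tested.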

How the data were processed

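RNA of HIP and P/FC was hybridised to Affymetrix rat genome arrays. The authors normalised all arrays with the Rosetta Resolver software, and the deposited values are linear intensities after subtraction of the background, 1 for every probeset of an array. Precision is limited by how many arrays there are. Line, cohort and region were read from the labels and all 78 arrays were used. A labelling batch was part of the authors' model but is not among the labels, so that no fit here holds it.

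Values below 1 were raised to 1 before log2 was taken, and no test held the 57 control probesets. Means were averaged over the 2 cohorts. The members and the gene lists were chosen with earlier results of these data known. Named are members with a symbol: the 12 with the largest fall in full, up to 3 per gene list, the 5 with the smallest p in each test, those without overlap, those within 10 genes of another, and those with a further probeset under 0.1 in size; members without a symbol are named where their fall is among the 5 largest, where a test ranks them, or as said. Symbols came from the platform annotation (20826 non-control probesets with 1 symbol, 436 with several, 9780 with none), updated to GRCr8.

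A region's fit held the probesets whose intensity passed 30 on 50% or more of the FRL arrays and of the FSL arrays. limma 3.58.1 in R 4.3.3 fitted a mean for each line and cohort, with moderated variances and Benjamini-Hochberg adjustment over all kept probesets. The region fits used all 78 arrays as independent, although both regions came from the same rats. The fits were tested on simulated data. Correlations used 99999 permutations, with scipy 1.17.1, pandas 2.3.3 and Python 3.11.15, and figures matplotlib 3.10.9. Alternatives were other filters (none, 30 in either line, 100 in each), quantile normalisation, 16 added before the logarithm, plain analysis of variance, control ratios as covariates, single cohorts, and the sample number as a block.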

Additional observations from a re-analysis of the deposited data

Results flagged for a closer look

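In 72 groups of 8 to 10 arrays over the 12 members described in full, 4 held an array whose gap to its nearest neighbour was large against the range of the group, where chance gives about 1 in 20 groups. The FSL array of Arhgap32 in HIP of cohort 1 at 230 had its nearest neighbour at 123. The FRL array of Fcrl2 in P/FC of cohort 2 at 35.3 lay under the next at 93.6. For Fn1 in P/FC of cohort 2, an FRL array at 354 stood above the next at 291, and an FSL array at 209.98 above the next at 149.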

How the results depend on the processing

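The rule gave 82 probesets, 85 with arithmetic FRL means, 78 after quantile normalisation, 62 with 16 added before the logarithm, 65 from cohort 1 alone (53 of them members) and 105 from cohort 2 alone (66 of them members). The ratio covariates, which gave 71 and 73, were chosen after the data were seen. The cohort and region differences of the line change called 0 members under each alternative run for them (not the single cohorts), with smallest adjusted p values by limma from 0.091 (quantile normalisation, HIP) upward. The level difference between regions was called for 41 to 46 of the members except with the filter of 100 in each line, which tested 36 members and called 23, since fewer probesets were tested. Sample numbers joined arrays only by number: of 39 pairs of HIP and P/FC arrays 10 had a correlation of deviations over 0.1 and 7 were each other's best match. With the replicate block the counts were 0, 0, 0 and 43, and it changed no call count. Dim members such as Zfp212 in FSL lay near the background, which limits how large their falls can be measured.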
